A study of Homo sapiens with 6 samples.

Results

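Chemokine and colony-stimulating factor (CSF) genes were compared between MCF10A cells and MCF10A cells that overexpress the transcription factor SNAI1. The members were every gene whose symbol is CCL or CXCL followed by a number, together with CX3CL1, XCL1, CSF1, CSF2 and CSF3, where the array had a probe set annotated with that symbol alone. This gave 38 genes of 18417 genes measured in all. They comprised 20 CC chemokines, 14 CXC chemokines, CX3CL1, XCL1, CSF1 and CSF3. CSF2 and CCL13 are not analysed here. The rule selects by symbol and array annotation, and the probe set with the highest mean stood for a gene with several.

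Total RNA from 3 cultures of each line was hybridized to Affymetrix HuGene arrays, 6 arrays in all, and the values are log2 expression as deposited. MCF10A cells are immortalized human mammary epithelial cells that do not form tumors, and those on these arrays were untransfected. MCF10A-SNAI1 cells were derived from MCF10A in another laboratory with a plasmid for SNAI1-Flag, driven by the chicken beta-actin promoter with a CMV enhancer, and selected with puromycin. Both lines were grown in mammary epithelial growth medium with cholera toxin, and the labels name no cytokine treatment. There was no empty-vector line on arrays, so plasmid, selection and culture history cannot be told apart from SNAI1. The labels call the samples biological replicates without saying how the cultures were separated, and p-values measure only the spread between these arrays.

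Chemokines are small secreted proteins that attract leukocytes through G protein-coupled receptors. The CXC chemokines CXCL1, CXCL2, CXCL3, CXCL5, CXCL6 and CXCL8 carry a glutamate-leucine-arginine (ELR) motif before their first cysteines and attract neutrophils through CXCR1 and CXCR2. Other CXC and CC chemokines attract lymphocytes, monocytes, dendritic cells or eosinophils. The colony-stimulating factors CSF1 and CSF3 promote survival and maturation of macrophages and neutrophils. Epithelial cells secrete several of these factors, and transcription of many of them is induced by interleukin 1 through NF-kB.

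SNAI1 itself lay at 5.73 to 5.80 on the MCF10A arrays and at 10.50 to 10.53 on the MCF10A-SNAI1 arrays, as its label requires. Each array correlated with the others of its line at a Pearson r of 0.9946 or more across probe sets, and with arrays of the other line at 0.9778 or less. Of 6 measured mammary epithelial markers, 4 were called lower in MCF10A-SNAI1 cells, with CDH1 at a log2 fold change of -3.97, KRT14 at -4.76, EPCAM at -3.70 and KRT5 at -2.23. The other epithelial markers, both keratins of simple epithelia, differed by less than 2-fold in opposite directions, KRT8 higher at 0.95 (limma adjusted p = 6.2e-05) and KRT18 lower at -0.65 (limma adjusted p = 0.00106). The summed linear level of all 6 ranged from 24780 to 26521 in MCF10A and from 9390 to 9494 in MCF10A-SNAI1 cells. Of 8 mesenchymal markers, 5 were called higher, namely COL1A1 at 2.57, ZEB1 at 2.04, CDH2 at 1.96, ZEB2 at 1.74 and FN1 at 1.47. Averaged over its 2 probe sets, ZEB2 was at 1.01 and still called. Not called were ACTA2 at 0.89 (limma adjusted p = 0.000198), COL1A2 at 0.25 (limma adjusted p = 0.0489) and VIM at 0.06 (limma adjusted p = 0.601). The summed linear level of the list was 8966 to 9593 in MCF10A and 19866 to 20844 in MCF10A-SNAI1 cells. FN1, the brightest of the list at 12.38 and 13.85, weighs most in this sum. None of 6 endothelial markers was called by limma, and 0 had an unadjusted p below 0.05. These 3 lists and the leukocyte list give marker levels in RNA of whole cultures and do not settle which cells made it. The part of the marker shifts in the results was not tested.

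The ELR chemokine genes are shown first by their promoters, because all 6 lie in 1 chromosomal cluster and share a short sequence upstream of the start site. RefSeq promoter sequences (GRCh38.p14) were matched for 26 of the 38 members. The letters GGAATTTCC, searched on both strands, form the core of a well-known NF-kB site. They occurred in 0.461% of 35116 RefSeq promoters of the same length, which reach from 250 bases upstream of the start site to 50 bases downstream. Among the members they occurred in 8, namely the 6 ELR genes, CXCL10 and CXCL11. The 130 bases before each start site are given 5′ to 3′ on the coding strand, with GGAATTTCC in capitals. CXCL2 is on the minus strand at chr4:74099196-74099325, CXCL1 on the plus strand at chr4:73869263-73869392 and CXCL8 on the plus strand at chr4:73740439-73740568. CXCL3 is on the minus strand at chr4:74038690-74038819, CXCL5 on the minus strand at chr4:73998678-73998807 and CXCL6 on the plus strand at chr4:73836548-73836677.
CXCL2: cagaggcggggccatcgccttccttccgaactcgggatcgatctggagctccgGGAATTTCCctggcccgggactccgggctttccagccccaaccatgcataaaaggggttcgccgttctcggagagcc
CXCL1: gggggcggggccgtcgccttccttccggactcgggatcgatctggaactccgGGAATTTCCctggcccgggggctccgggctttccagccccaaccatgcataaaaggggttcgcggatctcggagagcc
CXCL3: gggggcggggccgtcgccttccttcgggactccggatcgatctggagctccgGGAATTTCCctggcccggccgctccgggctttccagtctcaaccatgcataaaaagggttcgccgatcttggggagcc
CXCL8: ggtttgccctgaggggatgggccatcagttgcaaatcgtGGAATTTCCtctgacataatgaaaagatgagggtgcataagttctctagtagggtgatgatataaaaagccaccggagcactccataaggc
CXCL5: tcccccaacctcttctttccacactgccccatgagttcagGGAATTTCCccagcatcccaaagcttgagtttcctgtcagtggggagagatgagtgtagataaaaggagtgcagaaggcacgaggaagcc
CXCL6: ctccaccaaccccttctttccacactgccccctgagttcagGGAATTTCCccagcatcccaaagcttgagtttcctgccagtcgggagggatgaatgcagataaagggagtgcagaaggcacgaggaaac

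The shared letters began 77 bases before the start site in CXCL2, 78 in CXCL1 and CXCL3, 89 in CXCL6, 90 in CXCL5 and 91 in CXCL8. Anchored on these letters and compared without gaps over 109 bases, CXCL1, CXCL2 and CXCL3 were 62.4% to 89.9% identical to each other, and CXCL5 and CXCL6 were 92.7% identical. The 11 other pairs were 29.4% to 38.5% identical. The letters CAGGTG, an E-box to which Snail proteins are known to bind, were found on either strand in 20.6% of all promoters. They occurred in 6 of the 26 matched members, CCL3, CCL22, CCL24, CCL25, CCL28 and CXCL17, and in none of these ELR windows. The letters TGANTCA, an AP-1 site, were found in 7.71% of all promoters and in 6 members, CXCL8 alone among the ELR genes. A match of letters does not show that a factor binds, and its absence says only that the window lacks them.

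A gene was called where limma gave an adjusted p below 0.01 (Benjamini-Hochberg, over the whole array) and a fold change above 2. Of the 38 members, 3 were called lower in MCF10A-SNAI1 cells, against a background of 2.54% of all genes, and 1 was called higher, against 3.1%. Together the 4 make 10.5% of the members, against 5.64% of all genes called in either direction. Called lower were CXCL2, CSF3 and CXCL16, and called higher was CCL20. A further 3 members, CXCL1, CSF1 and CCL28, had an adjusted p below 0.01 with a fold change under 2. In all, 7 members had an adjusted p below 0.01 whatever the fold, a share of 18.4% against 23.2% of all genes, and 8 had one below 0.05, a share of 21.1% against 32.8%. The median log2 fold change of the members was -0.07 and that of all genes -0.01. Arrays of the lines did not overlap for 12 members, 8 of them lower and 4 higher in MCF10A-SNAI1 cells, which is 31.6% against 48.3% of all genes. For a gene whose arrays do not overlap, the exact permutation p, two-sided, is 0.1, and 3 against 3 arrays cannot give a smaller p.

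**Figure D1:**
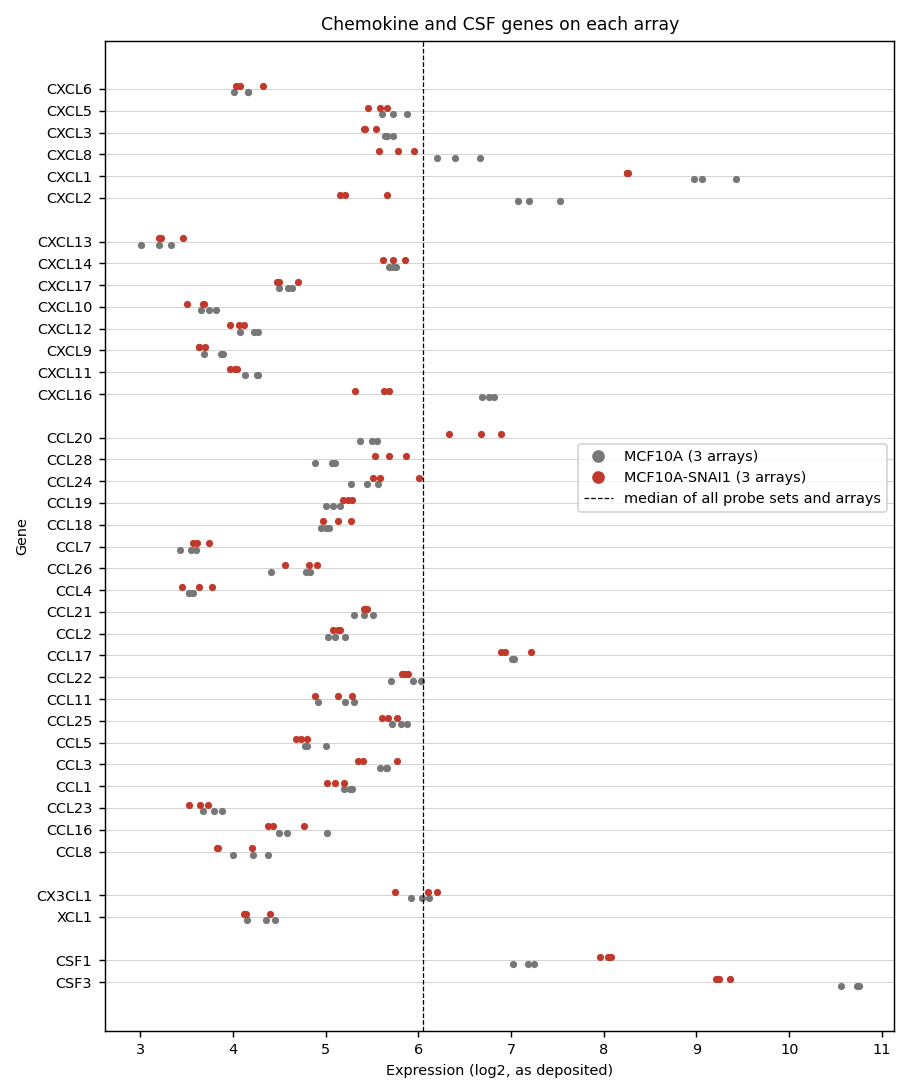
Expression of the 38 members on each array, as deposited on a log2 scale, grouped from top to bottom as ELR CXC, other CXC, CC, C and CX3C chemokines and CSFs. Grey points are the 3 MCF10A arrays and red points the 3 MCF10A-SNAI1 arrays, and the dashed line is the median of all values, 6.05. Red and grey points are separate for CXCL2, CXCL1, CXCL8, CXCL16, CCL20, CCL28, CSF1 and CSF3, are separate by small gaps for CXCL3, CXCL11, CCL1 and CCL19, and overlap for the other genes.

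Among the ELR chemokine genes, CXCL2 had the largest difference. CXCL2 encodes a neutrophil attractant made by macrophages and epithelia. Its values were 7.53, 7.19 and 7.08 in MCF10A and 5.21, 5.66 and 5.16 in MCF10A-SNAI1 cells. Every MCF10A-SNAI1 array lay below every MCF10A array, and the gap between the lines was wider than the range within either. CXCL2 fell 3.80-fold, from 7.27 ± 0.236 (SD, n = 3) to 5.34 ± 0.277 (SD, n = 3), with a log2 fold change of -1.93 (limma SE 0.168, adjusted p = 0.000214) and a 95% interval from -2.33 to -1.53. In RNA of whole cultures, fewer cells that express a gene and less of its RNA per cell cannot be told apart.

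CXCL1, a paralog of CXCL2 that acts on the same receptor, was also lower, by less. Its values were 9.06, 9.43 and 8.97 in MCF10A and 8.25, 8.26 and 8.25 in MCF10A-SNAI1 cells. The arrays did not overlap, and the MCF10A arrays spread more widely (SD 0.242) than the MCF10A-SNAI1 arrays (SD 0.00832). The log2 fold change was -0.90 (limma SE 0.119, adjusted p = 0.0015), a 1.86-fold difference with a 95% interval from 1.53-fold to 2.26-fold. CXCL1 was therefore not called, although the interval reached past 2-fold.

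CXCL8 encodes interleukin 8, the best known neutrophil attractant of this family. On these arrays CXCL8 was at 6.39, 6.67 and 6.21 in MCF10A cells against 5.95, 5.57 and 5.78 in MCF10A-SNAI1. Here too the lines did not overlap, but the lowest MCF10A array and the highest MCF10A-SNAI1 array were close. The log2 fold change was -0.65 (standard error 0.142), with adjusted p = 0.0144 from limma, which missed the threshold. IL6, a proinflammatory cytokine that NF-kB also induces, was at 4.02 ± 0.0315 in MCF10A cells against 3.99 ± 0.146 in MCF10A-SNAI1 (limma adjusted p = 0.875).

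The remaining ELR genes did not pass the threshold. CXCL3, whose 109 compared promoter bases were 89.9% identical to those of CXCL1, was at 5.68 ± 0.0471 in MCF10A cells against 5.46 ± 0.0714 in MCF10A-SNAI1. Its arrays did not overlap, but the log2 fold change was -0.22 (limma adjusted p = 0.054). CXCL5 was at 5.74 and 5.57 (limma adjusted p = 0.276) and CXCL6 at 4.11 and 4.15 (limma adjusted p = 0.862), and their arrays overlapped. The 95% intervals of the log2 fold change, -0.37 to -0.06 for CXCL3, -0.38 to 0.05 for CXCL5 and -0.19 to 0.26 for CXCL6, lay within the fold threshold on both sides. Between paralogs as close as CXCL1, CXCL2 and CXCL3, some RNA may bind the probes of another gene, and probe sequences were not used here to check it. Levels of different probe sets do not rank genes by abundance.

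**Figure D2:**
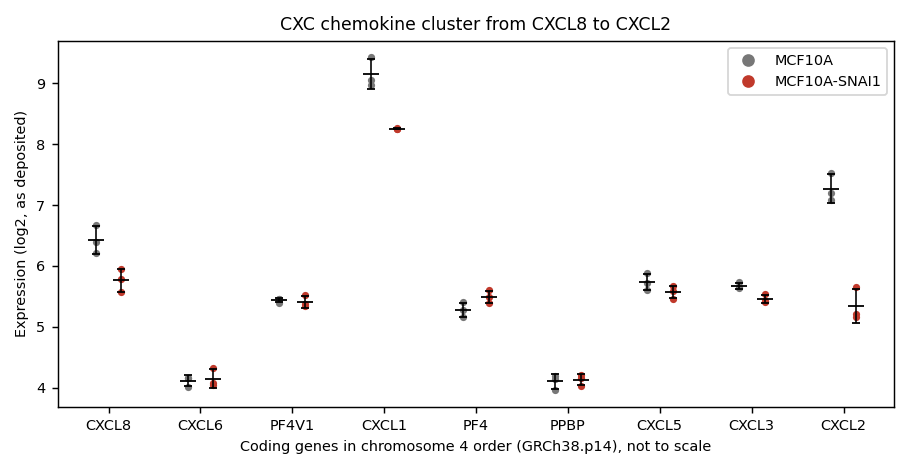
Expression (log2, as deposited) of the 9 coding genes from CXCL8 to CXCL2 in their order on chromosome 4, with a point per array (grey MCF10A, red MCF10A-SNAI1) with a black mark for the mean and SD of each line. CXCL8, CXCL1, CXCL3 and CXCL2 have separate points between the lines, and the other 5 genes overlap.

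In RefSeq order, the cluster runs from CXCL8 through CXCL6, PF4V1, CXCL1, PF4, PPBP, CXCL5 and CXCL3 to CXCL2. In this cluster only CXCL8, CXCL1 and CXCL2 had a limma adjusted p below 0.05. They are the first, the fourth and the last of the 9, so none is next to another. CXCL3, next to CXCL2, was also lower without overlap of the arrays, at a log2 fold change of -0.22 (limma adjusted p = 0.054). Between CXCL1 and CXCL8 lie CXCL6 and the platelet factor gene PF4V1, at log2 fold changes of 0.04 and -0.02. PF4 and PPBP, the other chemokine genes of platelets in the cluster, had log2 fold changes of 0.21 (limma adjusted p = 0.139) and 0.03 (limma adjusted p = 0.872).

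Of the 8 other CXC chemokine genes, 1 was called, against 5.64% of all genes. CXCL16 encodes a transmembrane chemokine that binds CXCR6 and can be shed from the cell surface by ADAM10. It was at 6.68, 6.82 and 6.76 in MCF10A cells against 5.63, 5.69 and 5.32 in MCF10A-SNAI1. The lines were well apart, with MCF10A-SNAI1 replicate 3 the lowest. CXCL16 fell 2.32-fold (limma log2 fold change -1.21, SE 0.106, adjusted p = 0.00022), and its 95% interval ran from 1.95-fold to 2.76-fold. ADAM10 lay at 10.39 ± 0.13 and 10.99 ± 0.0494 (limma log2 fold change 0.61, adjusted p = 0.00155, under the fold threshold).

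CXCL9, CXCL10 and CXCL11, the interferon-induced ligands of CXCR3, had log2 fold changes of -0.16, -0.11 and -0.21, with adjusted p = 0.19, 0.394 and 0.0601 from limma. All of these 3 genes had means below 4.23 in both lines, and the lowest 20% of all values lay below 3.94. CXCL12, the ligand of CXCR4 secreted by many fibroblasts and other stromal cells, was at 4.19 ± 0.102 in MCF10A cells against 4.05 ± 0.0773 in MCF10A-SNAI1. Its 95% interval, from -0.33 to 0.04 on the log2 scale, excluded a 2-fold difference of the array values either way. At so low a level a real change could be shrunk. CXCL13, CXCL14 and CXCL17 had log2 fold changes of 0.12, 0.02 and -0.02.

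Among the 20 CC chemokine genes, 1 was called higher, against 3.1% of all genes, and none was called lower, against 2.54%. A log2 fold change within 0.3 of 0 was found for 18 of the 20, and for 12889 of all 18417 genes. CCL20 encodes the ligand of CCR6, which attracts immature dendritic cells and some T and B cells to epithelia. It was at 5.38, 5.50 and 5.55 in MCF10A cells against 6.33, 6.90 and 6.68 in MCF10A-SNAI1. The MCF10A arrays lay close together, and all MCF10A-SNAI1 arrays were above them with a wider spread (SD 0.0916 and 0.283). CCL20 rose 2.23-fold (limma log2 fold change 1.16, SE 0.141, adjusted p = 0.00102), with a 95% interval from 1.77-fold to 2.81-fold. The methods' t-test gave it an adjusted p of 0.0186 and did not call it.

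The promoter of CCL20 is shown because this gene went the other way. It is on the plus strand at chr2:227813712-227813841 (RefSeq, GRCh38.p14). Capitals mark a looser NF-kB pattern on either strand, GGG and CC with any 5 bases between, which 58.7% of all RefSeq promoters and 18 of the 26 matched members also hold.
CCL20: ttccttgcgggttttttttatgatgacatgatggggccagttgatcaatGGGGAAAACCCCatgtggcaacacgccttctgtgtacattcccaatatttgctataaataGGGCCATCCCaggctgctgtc
Matches at 81, 80 and 79 bases before the start site overlap and appear as 1 run, and another begins 21 bases before it. GGAATTTCC was not found in this window.

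CCL28, a mucosal chemokine that binds CCR10 and CCR3, was at 5.11, 4.88 and 5.06 in MCF10A cells against 5.87, 5.68 and 5.53 in MCF10A-SNAI1. The lines did not overlap. Its log2 fold change was 0.68 (limma SE 0.106, adjusted p = 0.00338), a 1.60-fold difference whose 95% interval, 1.34-fold to 1.90-fold, stayed under 2-fold. The other CC genes showed smaller differences. CCL2, the monocyte attractant, was at 5.11 ± 0.0916 and 5.12 ± 0.0378 (limma adjusted p = 0.944). CCL5, which attracts T cells and monocytes, was at 4.86 and 4.74 (limma adjusted p = 0.373). CCL17, a CCR4 ligand, was among the 5 members of highest mean, at 7.02 and 7.01 (limma adjusted p = 0.959), and its MCF10A arrays spread less (SD 0.0154) than its MCF10A-SNAI1 arrays (SD 0.177).

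CX3CL1, a membrane-bound chemokine with a mucin stalk, was at 6.03 ± 0.101 in MCF10A cells against 6.02 ± 0.235 in MCF10A-SNAI1 (limma adjusted p = 0.977). The 95% interval of its log2 fold change ran from -0.30 to 0.29. XCL1, which attracts cross-presenting dendritic cells through XCR1, had a log2 fold change of -0.10 (limma adjusted p = 0.615). Its second probe set gave 0.10, so the probe sets differed in sign with neither called.

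The colony-stimulating factors measured here moved in opposite directions. CSF3 encodes granulocyte colony-stimulating factor, which drives neutrophil production and is itself induced by interleukin 1. It was at 10.73, 10.56 and 10.75 in MCF10A cells against 9.36, 9.25 and 9.21 in MCF10A-SNAI1. Both lines were tight, and the distance between them was many times the range within either. CSF3 fell 2.65-fold, from 10.68 ± 0.103 to 9.27 ± 0.0785 (limma log2 fold change -1.41, SE 0.0781, adjusted p = 2.7e-05).

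CSF1 encodes macrophage colony-stimulating factor, the ligand of CSF1R. It was at 7.25, 7.19 and 7.02 in MCF10A cells against 7.96, 8.04 and 8.07 in MCF10A-SNAI1. Every MCF10A-SNAI1 array was higher. The log2 fold change was 0.87 (limma SE 0.0792, adjusted p = 0.000255), a 1.83-fold difference with a 95% interval from 1.61-fold to 2.09-fold, so CSF1 passed the adjusted p and missed the fold threshold. IL34, the other ligand of CSF1R, had a log2 fold change of 0.06 (limma adjusted p = 0.653).

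**Figure D3:**
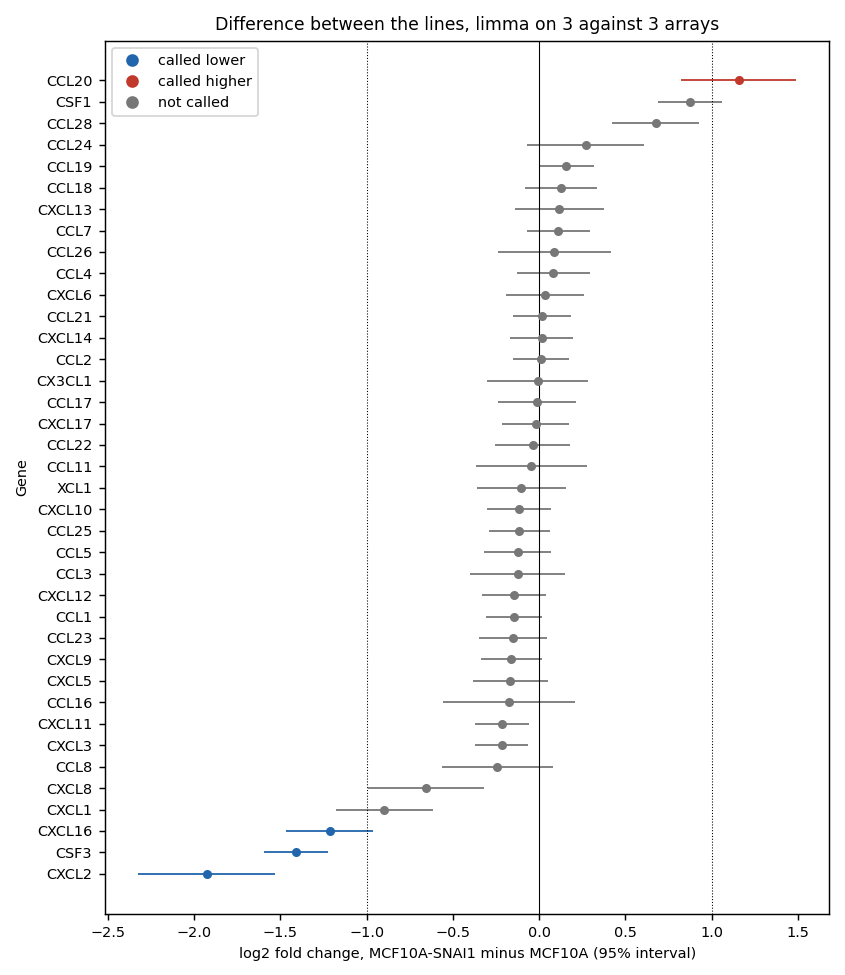
Log2 fold change of each of the 38 members, MCF10A-SNAI1 minus MCF10A, with its 95% interval from limma on 3 against 3 arrays. Blue marks genes called lower, red called higher and grey not called, and dotted lines mark a 2-fold difference. CXCL2, CSF3 and CXCL16 lie past the lower line and CCL20 past the upper, and the intervals of CXCL16, CCL20, CSF1 and CXCL1 cross a dotted line.

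For the 30 members at an adjusted p of 0.05 or more, log2 fold changes lay between -0.24 and 0.27. All of their 95% intervals lay between -0.56 and 0.61, which excludes a 2-fold difference on this scale for each. Of these 30 genes, 29 had means below the median of all values, 6.05, in both lines, and CCL17 was the exception. Over all 38 members, 30 had both means below that median, a share of 78.9% against 36.9% of all genes. The table holds no detection calls, so whether a low value is background was not settled, and a real change of a gene at background could be missed or shrunk.

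**Figure D4:**
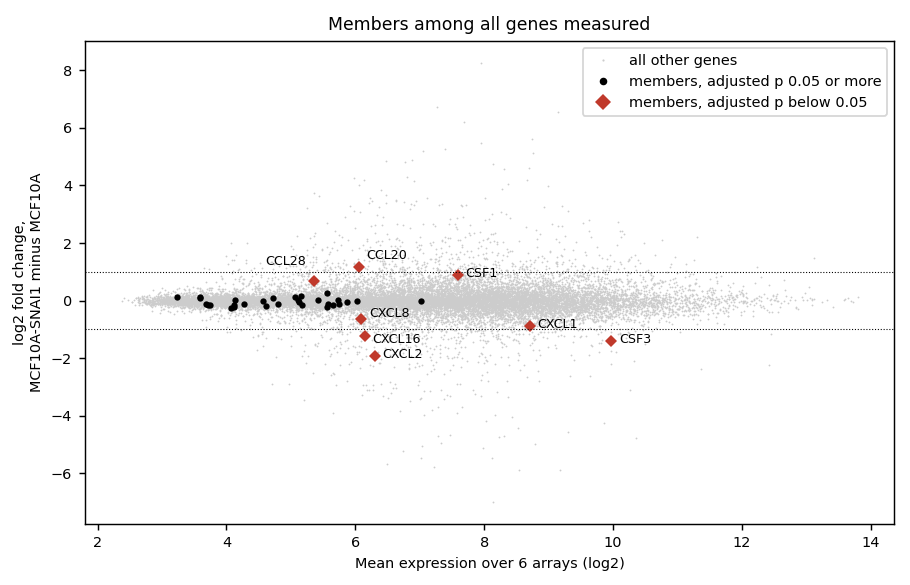
Log2 fold change (MCF10A-SNAI1 minus MCF10A) against mean expression over 6 arrays (log2) for 18417 genes in light grey, with the members in black or, at an adjusted p below 0.05, as red diamonds with names. Most members lie at the dim end and near 0, and the 8 named members lie at or above a mean of 5.36.

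Leukocyte markers were examined because leukocytes also make chemokines. Of 13 measured, CD14 was called higher (limma log2 fold change 1.03, adjusted p = 0.00321) and CD68, which is not restricted to leukocytes, was higher at 0.99 under the fold threshold. The call of CD14 was lost with the replicate block (limma adjusted p = 0.0174), by the methods' t-test (adjusted p = 0.0368) and when replicate 2 or 3 of either line was left out. The summed linear level of all 13 was 644.7 to 663.3 in MCF10A and 956 to 1025.5 in MCF10A-SNAI1 cells. PTPRC, the marker that all leukocytes share, was at 3.18 to 3.26 on every array, in the lowest 20% of all values, and CD3E was at 4.60 and 4.44. CD68, the brightest of the list at 8.15 in MCF10A and 9.13 in MCF10A-SNAI1 cells, weighs most in the sum of all 13. The median log2 fold change of the 13 markers was -0.01. The sum was higher in the line where CCL20, CCL28 and CSF1 were higher, and its part in those differences was not tested.

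Receptors for these ligands showed no called change. Of 25 measured receptors for chemokines and CSFs, 0 were called by limma or by the methods' t-test, and 4 had an unadjusted p below 0.05, a rate that was 42.3% over all genes. Of these, CCR1 alone had an adjusted p below 0.05, at 4.59 and 4.30 (limma log2 fold change -0.30, adjusted p = 0.0437). The ELR receptor CXCR2 was at 3.37 and 3.23, and CXCR1 at 4.40 and 3.88 (limma adjusted p = 0.0691). CSF1R was at 6.03 and 5.61 (limma adjusted p = 0.103), CCR6 at 4.44 and 4.40, and CSF3R at 4.84 and 4.97. In both lines 24 of the 25 receptors had means below the median of all values. Under other names than the rule used, the chemokine genes PPBP, PF4, PF4V1 and XCL2 and the CSF1R ligand IL34 gave 0 calls by limma of 5 genes, with 1 at an unadjusted p below 0.05.

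Genes of the NF-kB pathway, which drives transcription of many of these ligands, were mostly lower in MCF10A-SNAI1 cells where they differed. Of 23 measured subunits, kinases, inhibitors and other pathway genes, 4 were called lower, against 2.54% of all genes, and none higher. TNFAIP3, which shuts off NF-kB signaling, was at 9.13 ± 0.127 in MCF10A cells against 5.82 ± 0.0668 in MCF10A-SNAI1. The inhibitor NFKBIA had a log2 fold change of -1.74, its relative NFKBIZ one of -1.52 and the kinase MAP3K14 one of -1.13. Under 2-fold, 6 more were lower and 1 higher at an adjusted p below 0.01, a threshold that 23.2% of all genes passed. These included the subunits REL at -0.60, NFKB1 at -0.56 and NFKB2 at -0.52, and the higher gene was the coactivator BCL3 at 0.58. RELA was at 9.46 and 9.39. The list's median log2 fold change was -0.18. The list joins activators and inhibitors, and activity of the pathway was not tested here.

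Other secreted cytokines gave 3 calls of 22 genes, against 5.64% of all genes. IL1A and IL1B, the interleukin 1 ligands, were lower at log2 fold changes of -5.77 and -3.83, a larger difference than that of any chemokine or CSF. LIF, a cytokine of the interleukin 6 family, rose from 6.30 ± 0.185 to 7.60 ± 0.148 (limma log2 fold change 1.30, SE 0.117, adjusted p = 0.000243). The median log2 fold change over these 22 genes was -0.14. TNF was at 5.20 and 5.01 (limma adjusted p = 0.272).

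Among 13 measured genes whose products present or process chemokines, 2 rose, against 3.1% of all genes, and 2 fell, against 2.54%. SDC1, a heparan sulfate proteoglycan that binds chemokines at the cell surface, fell at a log2 fold change of -1.80, and the cysteine protease CTSC fell at -1.31. MMP2, a protease that can cleave CXCL12, rose at 3.28, and carboxypeptidase CPD rose at 1.26. DPP4, which trims several chemokines, was at 3.64 and 3.48 (limma adjusted p = 0.265). ADAM17, which sheds CX3CL1 among other proteins, was at 8.84 and 8.42 (limma adjusted p = 0.0185).

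**Figure D5:**
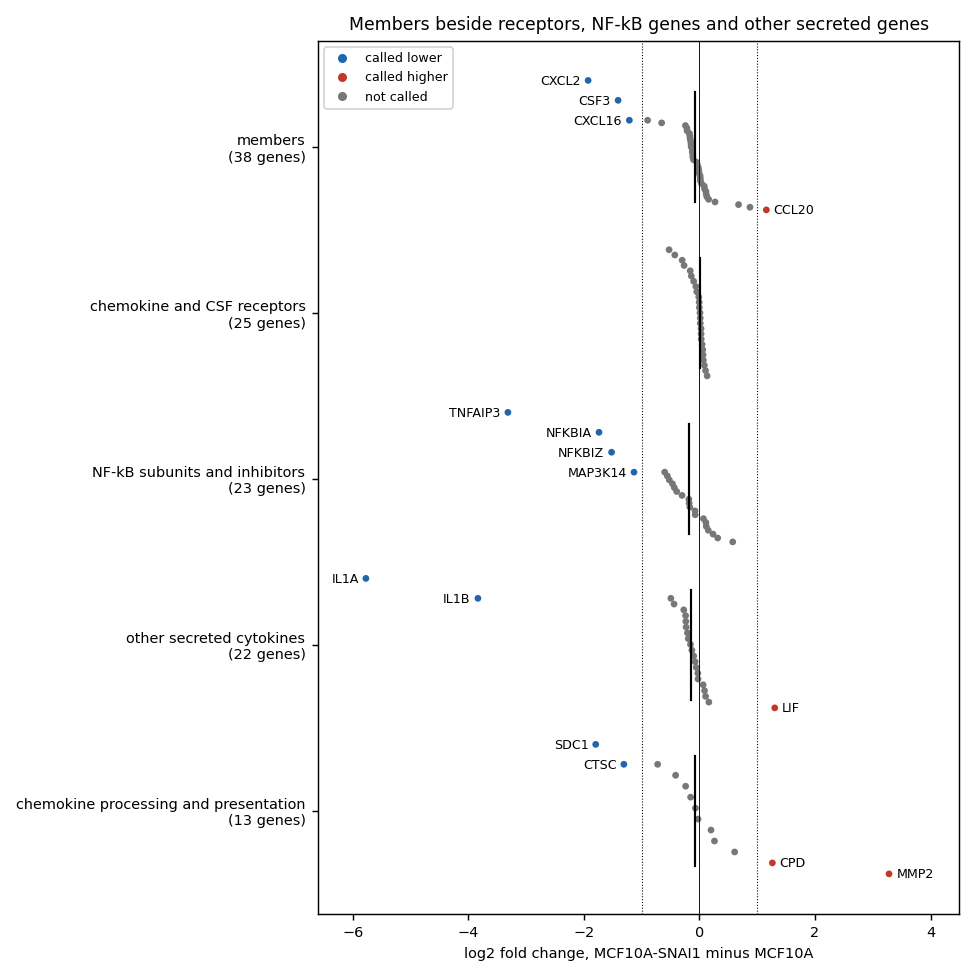
Log2 fold change (MCF10A-SNAI1 minus MCF10A) of the members and of the genes in the receptor, NF-kB, other cytokine and chemokine processing lists, with a point per gene, blue for called lower, red for called higher and grey for not called. Black bars are medians and dotted lines a 2-fold difference, and vertical spread within a list only separates the points. The receptors have no coloured point, and IL1A at -5.77 lies farthest to the left.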

How the data were processed

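The authors deposited log2 expression values for 33297 probe sets of Affymetrix HuGene-1_0-st-v1 arrays. According to the article, arrays were normalized by GC RMA in GeneSpring, whereas the submitters' processing notes list Expression Console 1.1, MAS5 and GCOS. The program behind the table is therefore unknown here, and no filter was applied. Probe sets with exactly 1 symbol (19460) were named through the platform annotation, updated by gene identifier to GRCh38.p14 symbols.

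The lines were compared in R 4.3.3 with limma 3.58.1 (lmFit, eBayes), MCF10A-SNAI1 minus MCF10A, over all probe sets, which was tested on simulated data first. The methods' t-test was an alternative, with quantile normalization, median centring, a replicate block, filters on dim probe sets, leave-one-out fits, trended robust moderation, no fold threshold and averaged probe sets. The alternative planned for linear values did not apply to log2 values. The members and gene lists were chosen with earlier results of these data known.

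Named genes were members called or at an adjusted p below 0.05, the 5 members of highest mean, a fixed set of ELR chemokines, CXCL12, CX3CL1 and CSFs, called genes of each other list, SNAI1, CDH1 and IL6. The other genes named were chosen after their values were seen. Only 3 arrays per line limited the precision. Motifs were counted in Python 3.11.15.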

Additional observations from a re-analysis of the deposited data

How the results depend on the processing

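CXCL2, CSF3 and CXCL16 were called lower under each of the 15 alternatives. CCL20 was called higher under all but the methods' t-test, which gave 0 members higher. That t-test also gave adjusted p of 0.021 for CXCL1, 0.0304 for CCL28 and 0.0807 for CXCL8, and 0.0051 for CSF1. The counts of members with an adjusted p below 0.01 or 0.05 thus depend on the test. With no fold threshold 3 members were higher, CCL20, CCL28 and CSF1, and 4 lower, CXCL1 joining the others. That setting also gave 4279 genes called in all, 11 NF-kB genes and 5 other cytokines. Without each array in turn, the counts of members stayed at 1 higher and 3 lower. Deviations from the line means correlated between arrays of the same replicate number at 0.115, 0.122 and -0.00618 for the numbers 1, 2 and 3. Arrays of different numbers were not compared, so whether the number pairs the arrays was not settled. The replicate block gave 1 member higher and 3 lower. CD14 was not called with the replicate block (adjusted p = 0.0174 from limma), by the methods' t-test, or when replicate 2 or 3 of either line was left out. Log2 fold changes near 0 changed sign when single arrays were left out, ranging from -0.113 to 0.051 for CCL17, from -0.0546 to 0.0907 for CXCL6, from -0.0981 to 0.125 for CX3CL1 and from -0.100 to 0.0456 for IL6. With probe sets above the median alone, 8 of the 38 members were tested. The background correction could not be varied from this table, and differences among dim genes may depend on it.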

Other observations

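On 8 probe sets annotated with several symbols, which the rule leaves out, log2 values of CCL3, CCL4 and their copies CCL3L1, CCL3L3, CCL4L1 and CCL4L2, of CCL14 with CCL15, and of CCL27 did not differ at the thresholds. Together with the second probe set of XCL1, their log2 fold changes lay between -0.14 and 0.10, and the lowest adjusted p from limma was 0.32. Some of these probe sets had identical values on all arrays.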
